A study of Mus musculus with 10 samples.

Results

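Cholesterol and fatty acids are built from acetyl-CoA by a fixed chain of enzymes, and 36 mouse genes of that chain were followed here through RNA level and ribosome occupancy. The 36 were taken from a written list by gene symbol, not by measured values, and each was found among the 21934 symbols of both deposited tables. They fall into 18 genes of sterol synthesis, 6 genes of sterol regulation and 12 genes of fatty acid synthesis.

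In the mevalonate pathway, acetyl-CoA is condensed to HMG-CoA, reduced to mevalonate, activated to isoprenoid units and joined to squalene, which oxidation, cyclisation and a series of demethylations and reductions turn into cholesterol. Fatty acid synthesis starts from citrate or acetate, makes malonyl-CoA, builds palmitate and then elongates and desaturates it. Most of these genes are textbook targets of the SREBP transcription factors, which are held in the endoplasmic reticulum (ER) membrane by Scap and the Insig proteins when sterols are plentiful and are cut free when sterols run low. In macrophages the same genes are known for supplying membrane during activation and for balancing cholesterol taken up from engulfed cells.

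The study compared cells with and without targeting of Wdr4, the partner subunit of the Mettl1 enzyme that places 7-methylguanosine in transfer RNA. One set was an immortalised bone marrow-derived macrophage line (iBMDM), described as monoclonal, infected with lentivirus carrying the guide RNA sgWdr4-1 or sgWdr4-2 and kept in puromycin for at least 1 week, against a WT control for which the labels give no control guide. The other set was tumour-associated macrophages (TAM), positive for F4/80, a macrophage surface marker, and sorted from Hepa1-6 hepatoma tumours implanted in the liver, in Wdr4 cKO mice labelled as a myeloid-specific knockout, against Wdr4 ff mice. The labels used here give no Cre driver, no age and no number of animals per library. Each of the 5 conditions had 1 library of polyadenylated input RNA and 1 library of ribosome footprints, the RNA stretches that a ribosome shields from RNase I, so no condition had a replicate.

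Values are TPM, transcript abundances corrected for the length of the gene and scaled so that each library sums to about 1000000, which carry no read depth, so no counting interval can be given. Translation efficiency is log2(footprint TPM + 1) minus log2(input TPM + 1) in one condition, and a change is the value in the targeted condition minus that in its control. Genes with a mean input and a mean footprint level of at least 5 TPM in a table were compared, which left 7536 genes and 34 of the 36 in the iBMDM table and 7101 genes and 33 of the 36 in the TAM table. Tm7sf2 and Acss2 fell below that level in both tables and Acaca in the TAM table. A gene is called 2-fold higher or lower where its log2 change was at least 1 in size, in iBMDM under both guides. This is a rule of size, not a test, and with 1 library per condition the TAM comparison has no test at all.

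Several facts of the libraries touch every result. Input RNA of Wdr4 was 31.3 TPM in sgWdr4-1 and 44.5 TPM in sgWdr4-2 against 44.6 TPM in WT, and 20.9 TPM in cKO against 39.8 TPM in ff. Wdr4 footprints went against the labels, at 24.3 and 26.9 TPM in sgWdr4-1 and sgWdr4-2 against 13.3 TPM in WT, and at 17.7 TPM in cKO against 8.51 TPM in ff. Directions below therefore belong to the libraries as labelled. Mitochondrially encoded genes took 0.781% of footprint TPM in sgWdr4-1, against 9.94% to 14.6% in the other footprint libraries, so results are also given for sgWdr4-2 alone. Of 20 macrophage markers, 17 stayed below 1 TPM in all inputs and Cd14 was at 5 TPM or more in each. Adgre1, the gene of F4/80, was at 0 in all 10 libraries. Summed macrophage marker input was 17.8, 20.3 and 20.4 TPM in sgWdr4-1, sgWdr4-2 and WT, and 19.7 TPM in cKO against 24.2 TPM in ff. Of 12 fibroblast and stellate cell markers 6 were at 5 TPM or more in each input and the other 6 below 1 TPM in each. Of 12 hepatocyte and hepatoma markers 10 were below 1 TPM in each input and Apoa1 and Apoa2 at 5 TPM or more. Summed fibroblast marker input was 4226 TPM in sgWdr4-1, 3649 TPM in sgWdr4-2 and 3579 TPM in WT, and 5247 TPM in cKO against 3591 TPM in ff. Summed hepatocyte marker input was 139, 108 and 114 TPM in sgWdr4-1, sgWdr4-2 and WT, and 166 TPM in cKO against 98.9 TPM in ff. Of 6 adipocyte markers 4 were below 1 TPM in each input and Fabp4 at 5 TPM or more. Their summed input was 6.65, 6.77 and 6.86 TPM in sgWdr4-1, sgWdr4-2 and WT, and 8.44 TPM in cKO against 14.6 TPM in ff. The part of these cell types in the results below was not tested, and in bulk libraries fewer cells of a type and less RNA per cell cannot be told apart.

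The promoters give the sequence context of these genes. RefSeq windows from 250 bases before to 50 bases after the gene start (mouse build GRCm38.p6; the sources used here do not name the build of the deposited values) were held for 29 of the 36, with 38 windows in all since some genes have several starts. A gene was counted where any of its windows held a motif, searched on both strands, be it the sterol regulatory element core TCACNCCAC, bound by SREBPs, CCAAT, bound by NF-Y, GGGCGG, bound by Sp1, or CACGTG, the E-box. The core TCACNCCAC was found for 1 of 29 genes (3.45%), Hmgcs1. It was found for 1.44% of all 27025 genes with a window and for 1.26% of compared genes. Other forms of the element were not searched, so a miss does not mean that a gene lacks a sterol regulatory element. CCAAT was found for 23 of 29 (79.3%) and for 14 of 15 sterol synthesis genes, against 41.1% of all genes with a window and 43.9% of those that were compared. GGGCGG was found for 24 of 29 (82.8%), against 38.2% of all genes and 73.7% of compared genes. CACGTG was found for 6 of 29 (20.7%), against 8.09% and 12.7%. None of the 4 motifs contains another, and a match describes the letters only.

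Hmgcs1, the synthase that makes HMG-CoA, is shown because it alone held the core. Elovl6 and Mvd are shown because, among genes with a window, their input RNA differed most between cKO and ff, a choice made after the values were seen. Capitals mark the searched motifs on either strand. The windows are chr13:119690101-119690400 on the plus strand for Hmgcs1, chr3:129532136-129532435 on the plus strand for Elovl6 and chr8:122443373-122443672 on the minus strand for Mvd.
Hmgcs1: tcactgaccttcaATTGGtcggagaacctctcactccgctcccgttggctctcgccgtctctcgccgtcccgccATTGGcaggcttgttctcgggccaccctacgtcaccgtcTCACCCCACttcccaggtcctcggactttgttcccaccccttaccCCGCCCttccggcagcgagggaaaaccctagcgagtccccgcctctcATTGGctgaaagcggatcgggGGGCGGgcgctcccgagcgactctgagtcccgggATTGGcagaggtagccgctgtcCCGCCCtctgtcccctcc
Elovl6: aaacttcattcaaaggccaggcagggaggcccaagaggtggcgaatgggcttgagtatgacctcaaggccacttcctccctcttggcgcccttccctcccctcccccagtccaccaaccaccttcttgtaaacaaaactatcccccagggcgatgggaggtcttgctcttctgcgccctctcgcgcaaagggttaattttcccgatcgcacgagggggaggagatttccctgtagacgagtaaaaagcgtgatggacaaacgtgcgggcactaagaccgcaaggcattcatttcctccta
Mvd: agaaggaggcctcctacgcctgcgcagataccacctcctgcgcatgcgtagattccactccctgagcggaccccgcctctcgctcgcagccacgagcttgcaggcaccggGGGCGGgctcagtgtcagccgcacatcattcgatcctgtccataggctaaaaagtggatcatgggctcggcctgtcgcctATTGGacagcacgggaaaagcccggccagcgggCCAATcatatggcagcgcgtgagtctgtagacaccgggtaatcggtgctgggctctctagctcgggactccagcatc
The Hmgcs1 window holds 4 CCAAT boxes, 3 GGGCGG boxes and the core as TCACCCCAC, which starts 137 bases before the gene start. The Mvd window holds 2 CCAAT boxes and 1 GGGCGG box. The Elovl6 window holds none of the 4 motifs.

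Input levels differed more between the 36 genes than across the 5 input libraries. By median input, Scd2, a stearoyl-CoA desaturase, was highest at 322 TPM, followed by Msmo1, the methyl sterol oxidase, at 255 TPM and Fdps, the farnesyl diphosphate synthase, at 193 TPM. Tm7sf2, a sterol reductase, was lowest at 1.75 TPM, followed by Acss2, which activates acetate, at 2.66 TPM and Dhcr7, the last reductase of cholesterol synthesis, at 8.04 TPM. The highest of the 5 inputs exceeded the lowest by a median of 1.52-fold over the 36 genes, the range running from 1.14-fold for Mid1ip1 to 2.46-fold for Mvd. The WT and ff inputs were labelled as a cell line and as sorted tumour macrophages and were normalised separately. They differed by a median of 0.11 in absolute log2 value and by at most 0.45. Footprints spread more: Fasn ranged from 13.8 to 57.3 TPM and Mid1ip1 from 5.17 to 43.9 TPM.

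**Figure D1:**
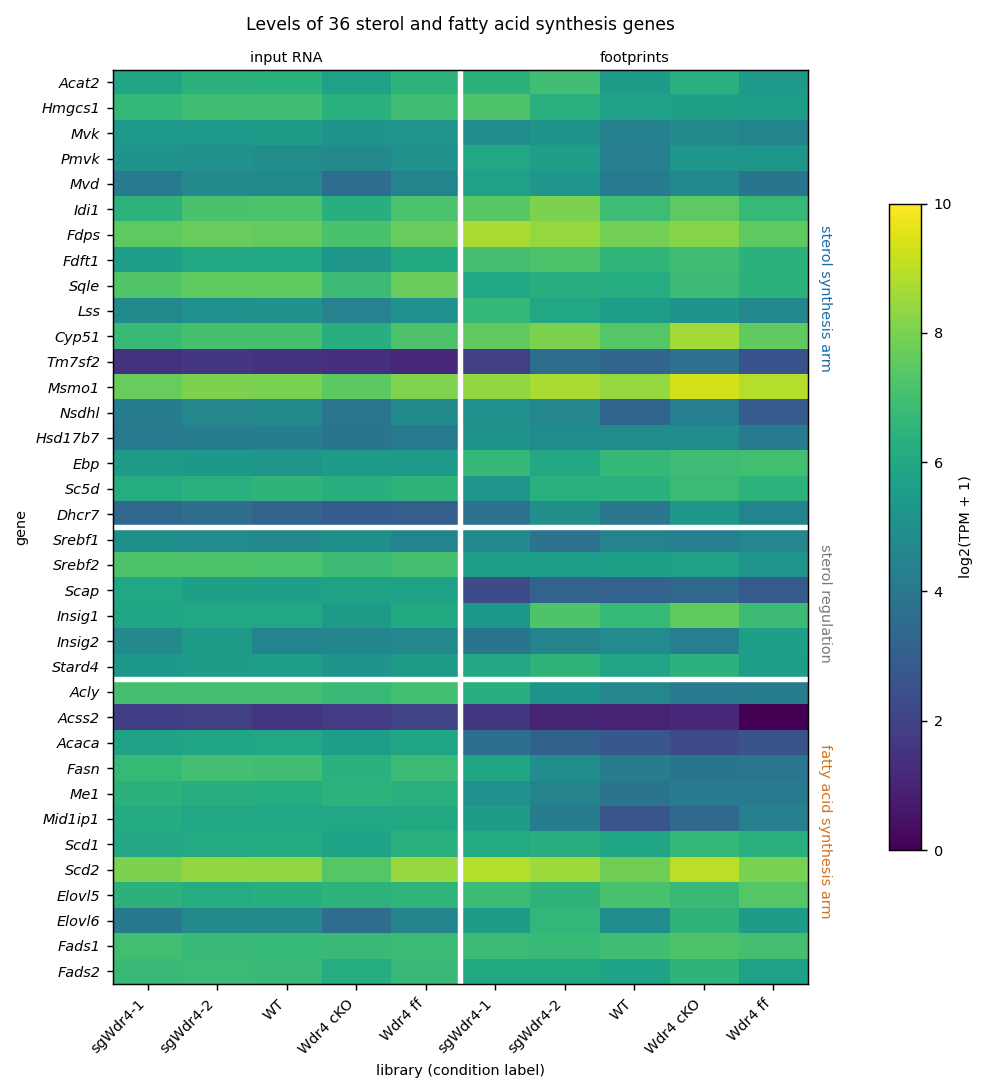
Colour gives log2(TPM + 1) of each of the 36 genes (rows) in the 5 input libraries (left) and the 5 footprint libraries (right), with white lines between sterol synthesis, sterol regulation and fatty acid synthesis. Colour differs more between rows than across the inputs within a row. Tm7sf2 and Acss2 are dark throughout the inputs, at 1.25 to 1.97 TPM and 1.99 to 3.10 TPM.

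Sterol synthesis genes had more footprints per unit of input RNA in each library labelled as Wdr4-targeted than in its control. Summed over the 18 genes, footprint TPM divided by input TPM was 1.63 in sgWdr4-1 and 1.42 in sgWdr4-2 against 0.984 in WT, and 2.31 in cKO against 1.01 in ff. The change of translation efficiency had a median of 0.88 in sgWdr4-1 and 0.62 in sgWdr4-2 over 17 genes, where all compared genes had medians of 0.01 and -0.05. In cKO against ff the median was 1.11 over 17 genes, and -0.25 over all compared genes. The change was above 0 for 14 of 17 in sgWdr4-1, 15 of 17 in sgWdr4-2 and 16 of 17 in cKO, against 50.5%, 46.5% and 35.1% of all genes.

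The route to those ratios differed between the comparisons. In cKO the summed input of the sterol synthesis genes was 1006 TPM, against 1550 TPM in ff, and their summed footprints were 2323 TPM, against 1567 TPM in ff. In sgWdr4-1 the summed input was 1217 TPM and in sgWdr4-2 1497 TPM, against 1492 TPM in WT, while footprints summed to 1988 and 2130 TPM, against 1468 TPM in WT. Input was thus lower in cKO and sgWdr4-1 and level with its control in sgWdr4-2, and footprints were higher in all 3. Input below and footprints above the control together held for 15 of 17 sterol synthesis genes in cKO (88.2%), where 18.9% of all compared genes did so. With the footprint libraries labelled ff and cKO exchanged it would hold for 1 of 17, and for 22.4% of all genes. Under the libraries as labelled, input below and footprints above WT held for 11 of 17 in sgWdr4-1 and 7 of 17 in sgWdr4-2, against 20.5% and 22.4% of all genes.

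**Figure D2:**
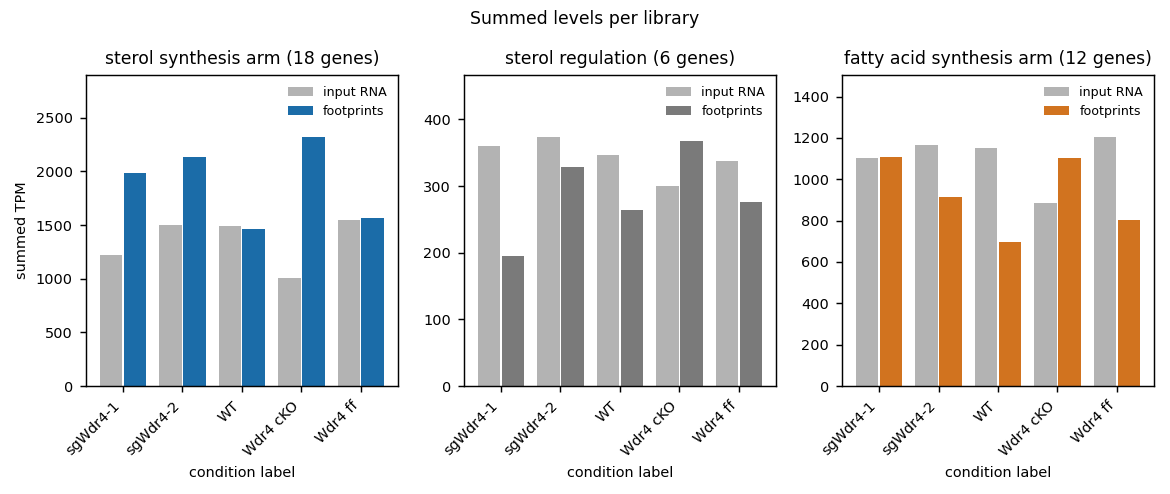
Bars give TPM summed over the 18 sterol synthesis, 6 sterol regulation and 12 fatty acid synthesis genes (panels, each with its own axis from 0) in every condition, input RNA in grey and footprints in colour. In the sterol panel, footprints stand above input in sgWdr4-1, sgWdr4-2 and cKO and level with input in WT and ff.

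Over all 36 genes, translation efficiency was at least 2-fold higher under both guides for 7 of 34, where 0.902% of all compared genes were, and at least 2-fold higher in cKO for 15 of 33, where 4.03% were. Acat2, Mvd, Idi1, Nsdhl and Elovl6 belonged to both. Pmvk and Mid1ip1 passed under the guides and not in cKO, and Fdps, Fdft1, Sqle, Lss, Cyp51, Msmo1, Insig1, Stard4, Scd2 and Fads2 in cKO and not under both guides. Whether a gene's change differed between the iBMDM and TAM sets was not tested. By sgWdr4-2 alone the 7 genes were the same, with a background of 3.53%, and by sgWdr4-1 alone there were 13, with a background of 14.8%. If the footprint libraries labelled ff and cKO are exchanged, 2 of 33 genes are at least 2-fold higher in cKO, Insig2 and Mid1ip1, with a background of 5.53%, and the sterol synthesis median is -0.07.

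Lower translation efficiency by the same rule was seen for 1 gene, Insig2, under both guides, where 2.04% of all compared genes passed, and again for Insig2 alone in cKO, where 16% passed. The guide lines allow one test, limma's moderated test of 2 lines against 1. It called 0 of 34 genes for translation efficiency at an adjusted p under 0.05, with 5 of 7536 genes called in all (0.0663%), and 5 of the 34 had an unadjusted p under 0.05 where 2.19% of all genes did. Those were Acat2, Elovl6, Mvd, Nsdhl and Pmvk. The lowest adjusted p by limma among the 36 genes was that of Mvd, with a log2 change of 1.80 (SE 0.62) and adjusted p = 0.861.

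**Figure D3:**
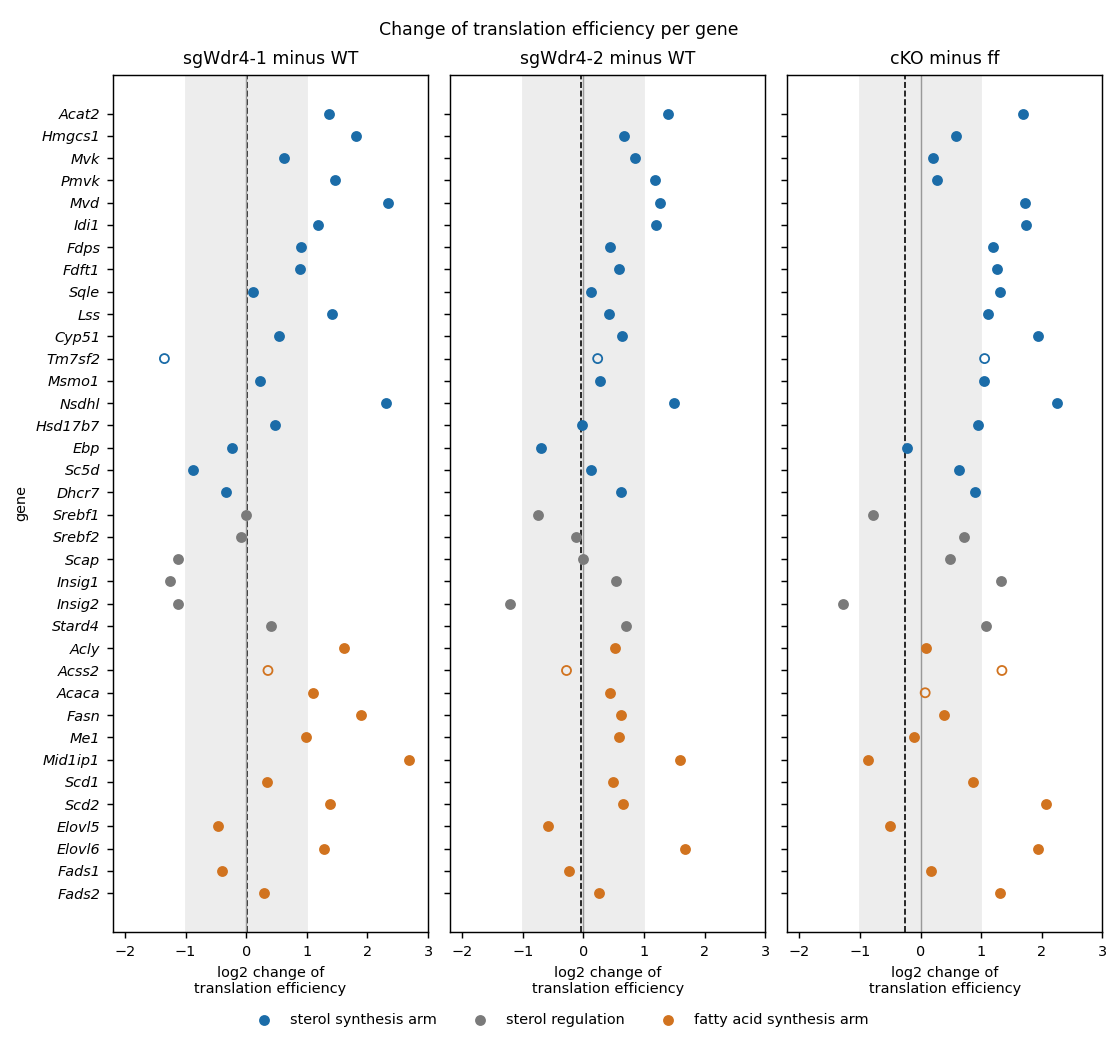
Points give the log2 change of translation efficiency of each gene in sgWdr4-1 and sgWdr4-2 against WT and in cKO against ff; open circles mark genes below the level filter, the grey band spans less than 2-fold, and dashed lines mark the median of all compared genes. Most sterol synthesis genes lie right of the dashed line in all 3 panels, while Acly, Fasn and Me1 lie between -0.12 and 0.39 in the cKO panel.

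Of the genes from Acat2 to Fdps, which make the isoprenoid units and join them, Acat2, Mvd and Idi1 passed the size rule in both sets and Hmgcs1 and Mvk in neither. Acat2, the cytosolic thiolase that joins 2 acetyl-CoA, had footprints of 84.1 TPM in sgWdr4-1 and 122 TPM in sgWdr4-2 against 44.7 TPM in WT, and of 81.4 TPM in cKO against 41.3 TPM in ff. Its input was 59.7 and 85.3 TPM in sgWdr4-1 and sgWdr4-2 against 83.5 TPM in WT, and 52.3 TPM in cKO against 86.8 TPM in ff. All 3 targeted footprint values lay above their own control, and the log2 change of its translation efficiency was 1.37, 1.40 and 1.68 in sgWdr4-1, sgWdr4-2 and cKO. The near-identical copy Acat3 was listed at 0.695 TPM or less in all 10 libraries, and the sources used here do not say how reads shared by copies were counted.

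Footprints of Hmgcs1 were highest in sgWdr4-1, at 148 TPM, with 81.1 TPM in sgWdr4-2 against 51.4 TPM in WT. In cKO it had 49.7 TPM of footprints against 47.6 TPM in ff, with inputs of 83.6 TPM in cKO and 121 TPM in ff. The TAM footprints were thus level, and the translation efficiency changes were 1.81, 0.67 and 0.59 in sgWdr4-1, sgWdr4-2 and cKO. Mvk, the mevalonate kinase, stayed under the 2-fold line with changes of 0.62, 0.86 and 0.21.

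Pmvk, the kinase that follows Mvk, had footprints of 61.0 TPM in sgWdr4-1 and 46.5 TPM in sgWdr4-2 against 18.5 TPM in WT, on inputs of 34.7, 32.3 and 30.0 TPM in that order. In TAM its footprints were 36.9 TPM in cKO against 37.9 TPM in ff, and its inputs 25.4 TPM in cKO against 31.8 TPM in ff. The difference was therefore in the iBMDM libraries, with translation efficiency changes of 1.47 and 1.18 there and 0.27 in cKO. Its footprints too were at least 2-fold higher under both guides.

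Mvd, the decarboxylase that makes isopentenyl diphosphate, had footprints of 51.8 TPM in sgWdr4-1 and 37.5 TPM in sgWdr4-2 against 16.0 TPM in WT, and of 24.3 TPM in cKO against 13.7 TPM in ff. Its input was 16.1 TPM in sgWdr4-1 and 25.4 TPM in sgWdr4-2 against 26.9 TPM in WT, and 10.9 TPM in cKO against 21.9 TPM in ff. Footprints were higher in all 3 targeted libraries and input lower in cKO and sgWdr4-1. The changes of translation efficiency were 2.34, 1.26 and 1.72.

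Idi1, the isomerase that interconverts the isoprenoid units, had footprints of 167 TPM in sgWdr4-1 and 263 TPM in sgWdr4-2 against 119 TPM in WT, and of 182 TPM in cKO against 102 TPM in ff. Its input was 87.1 and 137 TPM in sgWdr4-1 and sgWdr4-2 against 142 TPM in WT, and 75.6 TPM in cKO against 143 TPM in ff. Footprints were higher and input lower in cKO and sgWdr4-1, and in sgWdr4-2 footprints alone were higher. The change of translation efficiency was 1.19 under each guide and 1.75 in cKO.

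Fdps, which builds farnesyl diphosphate, had footprints of 420 TPM in sgWdr4-1 and 341 TPM in sgWdr4-2 against 237 TPM in WT, and of 289 TPM in cKO against 183 TPM in ff. Its input was 183 and 204 TPM in sgWdr4-1 and sgWdr4-2 against 193 TPM in WT, and 140 TPM in cKO against 205 TPM in ff. Its translation efficiency change reached the 2-fold line in cKO alone, with 1.20 there and 0.90 and 0.44 in sgWdr4-1 and sgWdr4-2.

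The squalene and lanosterol steps, carried out at the ER membrane, passed the 2-fold line in cKO and not under both guides. Fdft1, the squalene synthase, had footprints of 120 TPM in cKO against 84.3 TPM in ff and inputs of 38.7 TPM in cKO against 66.4 TPM in ff. In iBMDM its footprints were 133 and 145 TPM in sgWdr4-1 and sgWdr4-2 against 94.0 TPM in WT, on inputs of 46.5, 62.4 and 61.1 TPM in that order. All 3 targeted footprint values lay above their own control. The translation efficiency changes were 0.88, 0.59 and 1.27 in sgWdr4-1, sgWdr4-2 and cKO.

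Sqle, the squalene epoxidase and a rate-limiting step, had footprints of 114 TPM in cKO against 84.1 TPM in ff, and inputs of 113 TPM in cKO against 210 TPM in ff. In iBMDM its footprints were 63.7 TPM in sgWdr4-1 and 78.9 TPM in sgWdr4-2 against 72.2 TPM in WT, on inputs of 153, 186 and 186 TPM in that order. The WT footprint value lay between those of the 2 guide lines. The change of its translation efficiency was 0.11 and 0.13 under the guides, near the median of all genes, and 1.31 in cKO.

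Lss, which closes the rings of lanosterol, had footprints of 100.0 TPM in sgWdr4-1 and 60.3 TPM in sgWdr4-2 against 46.9 TPM in WT, and of 34.7 TPM in cKO against 24.3 TPM in ff. Its inputs were 26.0 and 31.8 TPM in sgWdr4-1 and sgWdr4-2 against 33.3 TPM in WT, and 20.5 TPM in cKO against 31.9 TPM in ff. The changes of 1.42, 0.42 and 1.11 passed the 2-fold line in sgWdr4-1 and cKO but not in sgWdr4-2, and with a pseudocount of 5 the cKO value was 0.97, under that line.

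Cyp51, the lanosterol demethylase, had footprints of 387 TPM in cKO against 188 TPM in ff and inputs of 77.8 TPM in cKO against 145 TPM in ff. In iBMDM its footprints were 188 and 256 TPM in sgWdr4-1 and sgWdr4-2 against 164 TPM in WT, on inputs of 105, 135 and 134 TPM in that order. The cKO footprint value was the highest of the 5 and its input the lowest of the 5. The translation efficiency change was 1.93 in cKO, against 0.55 and 0.64 in the guide lines.

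Msmo1 had the highest single footprint level of the 36 genes, at 649 TPM in cKO against 477 TPM in ff, and at 323 TPM in sgWdr4-1 and 424 TPM in sgWdr4-2 against 342 TPM in WT. Its inputs were 176 TPM in cKO against 269 TPM in ff, and 205 and 263 TPM in sgWdr4-1 and sgWdr4-2 against 255 TPM in WT. The guide lines lay on either side of WT in footprints. Its changes were 0.23, 0.27 and 1.05 in sgWdr4-1, sgWdr4-2 and cKO.

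Nsdhl, the dehydrogenase that works with Msmo1 in removing methyl groups, had the largest cKO change of the 36 genes. Its footprints were 19.2 TPM in cKO against 6.54 TPM in ff, and 31.4 TPM in sgWdr4-1 and 23.5 TPM in sgWdr4-2 against 8.46 TPM in WT. Its inputs were 14.3 TPM in cKO against 26.3 TPM in ff, and 17.6 and 23.7 TPM in sgWdr4-1 and sgWdr4-2 against 25.8 TPM in WT. Footprints in both controls were under 10 TPM and in the 3 targeted libraries above it. The changes of translation efficiency were 2.30, 1.49 and 2.25 in sgWdr4-1, sgWdr4-2 and cKO, and those of footprints alone 1.78, 1.38 and 1.42. It was the one gene of the 36 whose footprints passed the 2-fold line in both sets, joined by Mvd after rescaling to a common median.

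The remaining steps had smaller or mixed values. Hsd17b7, the partner reductase of that demethylation, had translation efficiency changes of 0.47, -0.02 and 0.95 in sgWdr4-1, sgWdr4-2 and cKO. Sc5d, a sterol desaturase, had -0.87, 0.13 and 0.63, and Dhcr7 had -0.34, 0.62 and 0.90. Ebp, the sterol isomerase, was the one sterol synthesis gene below 0 in all 3, at -0.23, -0.70 and -0.23, and its cKO value ran to 0.07 when libraries were rescaled. Tm7sf2, below the level filter, had footprints of 2.72 TPM in sgWdr4-1 and 11.1 TPM in sgWdr4-2 against 8.49 TPM in WT, and of 12.6 TPM in cKO against 4.66 TPM in ff.

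**Figure D4:**
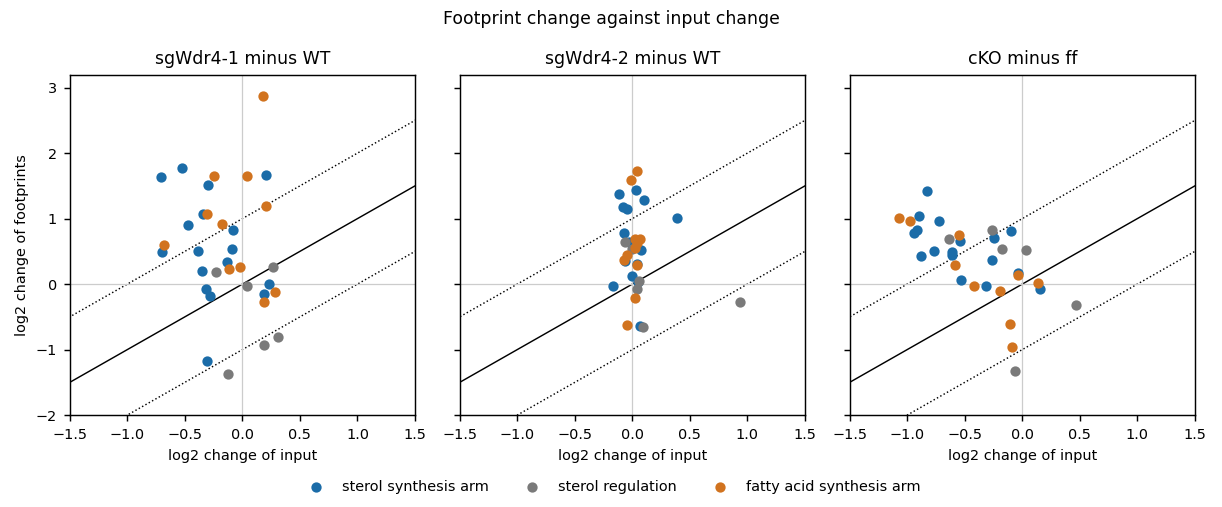
Points give each compared gene's log2 change of input RNA (horizontal) and of footprints (vertical) in sgWdr4-1 and sgWdr4-2 against WT and in cKO against ff; the solid line marks equal change and dotted lines a 2-fold difference in translation efficiency. In the cKO panel the sterol synthesis genes gather in the upper left, with input lower and footprints higher, and in the sgWdr4-2 panel they spread vertically at input changes near 0.

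Footprints and input taken alone passed the size rule for few of the 36. Footprints were at least 2-fold higher under both guides for 4, Pmvk, Mvd, Nsdhl and Mid1ip1, where 0.743% of all compared genes were, and in cKO for 3, Cyp51, Nsdhl and Scd2, where 2.73% were. Footprints were lower for 0 under both guides (1.43% of all genes) and for 1 in cKO, Insig2 (8.15%). Input was higher for 0 under both guides (0.0133% of all genes) and for 0 in cKO (1.42%). It was lower for 0 under both guides (0.0265%) and for 1 in cKO, Scd2 (0.169%).

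By limma, 0 of 34 were called for footprints, with 1 of 7536 genes called in all (0.0133%), 1 of the 34, Mid1ip1, at an unadjusted p under 0.05 and 65 such genes in all. For input 0 of 34 were called, with 0% of all genes called, 0 of the 34 at an unadjusted p under 0.05 and 55 such genes in all. Below the 2-fold line, input of the sterol synthesis genes had a median change of -0.61 in cKO, with 16 of 17 below 0, while the median of all genes was 0.06 and 41.2% of them were below 0. Under sgWdr4-1 the median was -0.31 with 14 of 17 below 0, against 0.08 and 36.8% for all genes. Under sgWdr4-2 it was 0.00 with 8 of 17 below 0, close to the 0.01 and 47.2% of all genes.

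The sterol sensors and their partners had mixed values. Srebf2, the SREBP that drives sterol genes, had inputs of 147 TPM in sgWdr4-1 and 146 TPM in sgWdr4-2 against 142 TPM in WT, and of 116 TPM in cKO against 131 TPM in ff. Its footprints were 47.6 and 46.4 TPM in sgWdr4-1 and sgWdr4-2 against 48.7 TPM in WT, and 52.3 TPM in cKO against 35.8 TPM in ff. The iBMDM values were level, and the translation efficiency changes were -0.08, -0.11 and 0.71. Srebf1, the SREBP better known for fatty acid genes, had footprints of 25.7 TPM in sgWdr4-1 and 13.0 TPM in sgWdr4-2 against 21.1 TPM in WT, and of 18.9 TPM in cKO against 23.8 TPM in ff. On inputs of 30.6, 27.0 and 25.2 TPM in sgWdr4-1, sgWdr4-2 and WT, and 30.5 and 21.8 TPM in cKO and ff, its changes were -0.00, -0.76 and -0.78.

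Scap, the escort that carries SREBPs out of the ER, had few footprints for its input, at 3.97 TPM in sgWdr4-1 and 8.02 TPM in sgWdr4-2 against 7.73 TPM in WT, and 9.29 TPM in cKO against 6.18 TPM in ff. Its input was 61.0 and 51.1 TPM in sgWdr4-1 and sgWdr4-2 against 48.9 TPM in WT, and 52.7 TPM in cKO against 51.5 TPM in ff. Scap thus had the lowest translation efficiency of the regulators in every condition, between -3.64 and -2.38. Its changes were -1.13, -0.01 and 0.49.

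Insig1 and Insig2, the ER proteins that hold Scap in place, had different values. Insig1, itself a classical SREBP target, had footprints of 39.0 TPM in sgWdr4-1 and 150 TPM in sgWdr4-2 against 103 TPM in WT, and of 186 TPM in cKO against 116 TPM in ff. Its input was 57.3 and 62.5 TPM in sgWdr4-1 and sgWdr4-2 against 62.6 TPM in WT, and 42.3 TPM in cKO against 66.2 TPM in ff. The guide lines lay on either side of WT, and the changes were -1.25, 0.54 and 1.32 in sgWdr4-1, sgWdr4-2 and cKO.

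Insig2 was the one gene of the 36 with lower translation efficiency by the size rule in both sets. Its footprints were 13.8 TPM in sgWdr4-1 and 22.3 TPM in sgWdr4-2 against 27.2 TPM in WT, and 18.8 TPM in cKO against 49.0 TPM in ff. Its input was 25.3 and 43.1 TPM in sgWdr4-1 and sgWdr4-2 against 22.1 TPM in WT, and 23.3 TPM in cKO against 24.3 TPM in ff. In sgWdr4-2 a higher input made most of the difference, and in cKO and sgWdr4-1 lower footprints. The changes were -1.12, -1.21 and -1.27, and with a pseudocount of 5 the sgWdr4-1 value was -0.94. After rescaling to a common median the cKO value was -0.996, under the 2-fold line. Of all compared genes 2.04% were lower by that rule under both guides and 16% in cKO.

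Stard4, a cytosolic carrier that moves cholesterol between membranes, had footprints of 64.6 TPM in sgWdr4-1 and 89.0 TPM in sgWdr4-2 against 56.9 TPM in WT, and of 82.4 TPM in cKO against 46.2 TPM in ff. Its input was 39.0 and 43.8 TPM in sgWdr4-1 and sgWdr4-2 against 45.8 TPM in WT, and 35.0 TPM in cKO against 42.2 TPM in ff. All 3 targeted footprint values lay above their own control, and the changes were 0.41, 0.70 and 1.08.

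Fatty acid synthesis genes had medians above those of all genes in each comparison. Their median change of translation efficiency was 1.09 in sgWdr4-1 and 0.52 in sgWdr4-2 over 11 genes, and 0.28 in cKO over 10 genes, beside medians of 0.01, -0.05 and -0.25 over all compared genes. Summed over the 12 genes, footprints divided by input were 1.00 in sgWdr4-1 and 0.786 in sgWdr4-2 against 0.604 in WT, and 1.24 in cKO against 0.665 in ff. The cKO sum leaned on Scd2, with 510 of the 1101 TPM of footprints. Among genes of at least 20 TPM the medians were 1.13 in sgWdr4-1, 0.56 in sgWdr4-2 and 0.87 in cKO. All genes at that level had medians of 0.10, 0.01 and -0.14. In cKO that level kept only Scd1, Scd2, Elovl5, Fads1 and Fads2. The guide lines also kept Acly, Fasn, Me1, Mid1ip1 and Elovl6, so these medians cover different genes. No difference between the sets was tested.

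The cytosolic enzymes of palmitate synthesis had more footprints in the guide lines than in WT and level footprints in cKO and ff. Fasn, the fatty acid synthase, had footprints of 57.3 TPM in sgWdr4-1 and 29.0 TPM in sgWdr4-2 against 17.6 TPM in WT, and of 13.8 TPM in cKO against 14.1 TPM in ff. Acly, which cuts citrate to acetyl-CoA, had footprints of 76.8 and 35.0 TPM in sgWdr4-1 and sgWdr4-2 against 23.7 TPM in WT, and of 16.4 TPM in cKO against 17.8 TPM in ff. Both guide lines lay above WT for both enzymes, sgWdr4-1 the further, and the changes of translation efficiency in sgWdr4-1, sgWdr4-2 and cKO were 1.90, 0.62 and 0.39 for Fasn and 1.62, 0.52 and 0.08 for Acly. Their inputs ran from 109 to 130 TPM for Acly and from 82.7 to 128 TPM for Fasn. In cKO the input change of Fasn was -0.42 and its footprint change -0.03. Acaca, the carboxylase that makes malonyl-CoA, had footprints of 11.5 and 7.53 TPM in sgWdr4-1 and sgWdr4-2 against 5.62 TPM in WT, with changes of 1.09 and 0.44. Me1, the malic enzyme that supplies NADPH, had changes of 0.99, 0.59 and -0.12, and its cKO value ran to 0.18 when libraries were rescaled.

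Mid1ip1, a small protein that promotes polymerisation of acetyl-CoA carboxylase, had the largest sgWdr4-1 change of the 36 genes and a near-constant input. Its footprints were 43.9 TPM in sgWdr4-1 and 17.5 TPM in sgWdr4-2 against 5.17 TPM in WT, but 9.58 TPM in cKO against 19.6 TPM in ff. Its inputs were 70.4 and 61.6 TPM in sgWdr4-1 and sgWdr4-2 against 61.9 TPM in WT, and 62.6 TPM in cKO against 66.7 TPM in ff. The guide lines lay above WT while cKO lay below ff, and the changes were 2.68, 1.60 and -0.87.

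The membrane enzymes that elongate and desaturate fatty acids included the largest cKO changes of this arm. Scd2 had footprints of 510 TPM in cKO against 253 TPM in ff, and of 478 TPM in sgWdr4-1 and 367 TPM in sgWdr4-2 against 228 TPM in WT. Its input was 165 TPM in cKO against 348 TPM in ff, and 260 and 328 TPM in sgWdr4-1 and sgWdr4-2 against 322 TPM in WT. It was the one gene of the 36 at least 2-fold apart in both input and footprints, in opposite directions, with an input change of -1.07 and a footprint change of 1.01 in cKO. These lie close to the 2-fold line: after rescaling to a common median Mvd and Elovl6 join it, and with a pseudocount of 5 its footprint change is under 2-fold. The changes of its translation efficiency were 1.38, 0.66 and 2.08. Scd1, its paralog, had changes of 0.35, 0.50 and 0.87.

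Elovl6, which extends palmitate to stearate, had footprints of 44.1 TPM in sgWdr4-1 and 97.1 TPM in sgWdr4-2 against 28.7 TPM in WT, and of 89.2 TPM in cKO against 45.5 TPM in ff. Its input was 15.3 and 25.9 TPM in sgWdr4-1 and sgWdr4-2 against 25.2 TPM in WT, and 11.0 TPM in cKO against 22.5 TPM in ff. Input was thus lower in cKO and sgWdr4-1 and footprints higher in all 3. The changes of translation efficiency were 1.28, 1.68 and 1.93.

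Fads2, the first desaturase of polyunsaturated fatty acid synthesis, had footprints of 88.8 TPM in cKO against 52.2 TPM in ff, and of 65.8 TPM in sgWdr4-1 and 67.1 TPM in sgWdr4-2 against 54.5 TPM in WT. Its input was 71.7 TPM in cKO against 105 TPM in ff, and 107 and 112 TPM in sgWdr4-1 and sgWdr4-2 against 109 TPM in WT. The difference was large in cKO alone, with changes of 0.29, 0.25 and 1.30. Fads1, the desaturase that follows, had changes of -0.40, -0.23 and 0.17, and Elovl5, the elongase of polyunsaturated chains, was below 0 in all 3, at -0.46, -0.58 and -0.50.

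The place where each protein works divided the 36 genes in another way, by classes written after the values were seen, so the medians below are a description. Genes outside the 36 were not divided by place. In the guide lines the cytosolic proteins had the higher changes, with a median of 1.37 in sgWdr4-1 and 0.70 in sgWdr4-2. All 13 were above 0 in each, where 50.5% and 46.5% of all compared genes were. The 21 proteins of the ER membrane had medians of 0.11 and 0.25, and all compared genes 0.01 and -0.05. In cKO the order was the other way, with 0.49 over 12 cytosolic proteins and 0.95 over 21 of the ER membrane. Within sterol synthesis the cKO medians of both places were close, at 1.20 over 7 cytosolic and 1.08 over 10 ER proteins. In fatty acid synthesis they were apart, at -0.02 over 4 cytosolic and 1.09 over 6 ER proteins. The cytosolic proteins of fatty acid synthesis, Mid1ip1 included, also started from low translation efficiency. Their median log2 level was -0.83 in sgWdr4-1 and -1.85 in sgWdr4-2 against -2.73 in WT, over 5 genes. In TAM, over 4 genes, it was -2.55 in cKO against -2.49 in ff. All compared genes had median log2 levels of -0.43 in sgWdr4-1 and -0.63 in sgWdr4-2 against -0.58 in WT, and of -0.85 in cKO against -0.59 in ff.

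**Figure D5:**
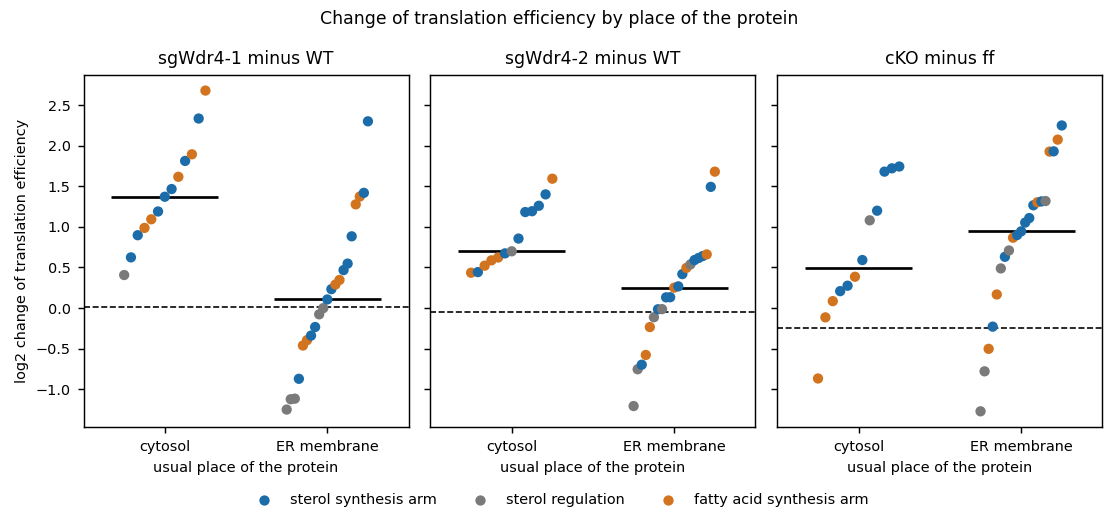
Points give the log2 change of translation efficiency of each compared gene by the usual place of its protein, cytosol or ER membrane; short bars are medians and dashed lines the median of all compared genes. Cytosolic proteins stand higher in sgWdr4-1 and sgWdr4-2, and in cKO the lowest points of the cytosol column are fatty acid synthesis genes.

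Genes next to these pathways gave smaller or other values. By the size rule for translation efficiency, 0.902% of all compared genes were higher and 2.04% lower under both guides. In cKO 4.03% were higher and 16% lower. Of 8 compared genes in the list of other sterol synthesis and uptake, 0 passed the size rule for translation efficiency under both guides and 1 was higher in cKO, with medians of 0.05, 0.02 and 0.26 in sgWdr4-1, sgWdr4-2 and cKO. Of 16 genes of SREBP processing and sterol-regulated degradation, 0 passed under the guides and Erlin2, a membrane protein that helps degrade sterol-regulated proteins, was lower in cKO at -1.30; the medians were -0.69, -0.16 and 0.08. In the isoprenoid branch, which uses farnesyl and geranylgeranyl groups, 0 of 16 passed under the guides, and of 15 in cKO Icmt, the methyltransferase of prenylated proteins, was higher at 1.19 and Rabggta, a Rab geranylgeranyl transferase subunit, lower at -1.11; the medians were -0.22, 0.02 and -0.10.

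Genes that store, export or sense cholesterol had medians of -0.78 and -0.87 over 7 genes in sgWdr4-1 and sgWdr4-2 and of -0.60 over 8 in cKO, below those of all genes. Among them Nr1h2, the oxysterol receptor LXR beta, was lower under both guides at -2.21 and -1.33, and 0 passed in cKO. Of the other genes of fatty acid, elongation and glycerolipid synthesis, 0 of 22 passed under the guides, and of 23 in cKO 2 were higher, Agpat1 at 1.31 and Elovl4 at 1.22, and 3 were lower, the lowest being Gpat3 at -1.14. Of all compared genes 4.03% were higher and 16% lower in cKO. Fatty acid oxidation, which breaks fatty acids down, had a median of 0.76 in sgWdr4-1, -0.12 in sgWdr4-2 and -0.64 in cKO over 20 genes. None of those 20 passed under both guides and 7 were lower in cKO, where 16% of all compared genes were, led by Cpt1a, the carnitine palmitoyltransferase that admits fatty acids to mitochondria, at -1.86, Etfb, an electron carrier, at -1.81 and Acaa1a, a peroxisomal thiolase, at -1.76.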

How the data were processed

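Ribo-seq and matched polyadenylated input RNA were measured in 5 conditions, with 1 library of each kind per condition. The authors deposited TPM values in 2 tables, normalised separately, one for 6 iBMDM libraries and one for 4 TAM libraries. The submitters' processing notes name the read trimmer fastp (version 0.18.0) and the aligner Bowtie2. Build, annotation, quantifying tool and handling of reads shared between genes: not given in the sources used here. Read depth is unknown from TPM, so precision cannot be stated per value.

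From these values log2(TPM + 1) was taken in Python 3.11.15 with pandas 2.3.3, translation efficiency as footprints minus input per condition. Genes with mean input and mean footprints of at least 5 TPM in a table were compared within that table only, since labelled cells and normalisation differ. Where TPM values of both tables stand side by side, as in a highest or lowest of the 5 conditions, they are description only. The size rule was a log2 change of at least 1. The guide lines were also compared with WT by limma 3.58.1 in R 4.3.3, with an expression trend, two-sided, Benjamini-Hochberg adjusted over 7536 genes. That fit has 1 residual degree of freedom between the 2 guide lines and takes the single WT line to vary as they do. Nothing says that the lines are separate cultures, so p-values concern these libraries only. With an expression trend, the fit borrows the spread of genes of like level, so an SE is not the gene's own spread. For translation efficiency, Insig1 with guide changes of -1.25 and 0.54 had an SE of 0.62. Idi1, with 1.19 under each guide, had an SE of 0.61. Translation efficiency is taken within a line, so the line is the replicate block by construction.

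The 36 genes, the lists of other genes and the tests were chosen with earlier results of these data known. All 36 are named; values in every library are given for those past the size rule for translation efficiency and for the regulators, and the text also gives them for Hmgcs1, Fasn, Acly, Acaca and Tm7sf2 in part. Of other lists at most 3 genes per comparison are named, and some genes of those lists are not reported here. Alternatives were the pseudocount, the level filter, the library scaling, each guide line alone and the exchange of the TAM footprint libraries.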

Additional observations from a re-analysis of the deposited data

Results flagged for a closer look

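Translation efficiency of 5 genes lay on one side of the control under both guides and on the other side in cKO against ff. The difference between the iBMDM and TAM changes was not tested for any of them. Mid1ip1, the partner of acetyl-CoA carboxylase, had log2 changes of -0.87 in cKO, and of 2.68 in sgWdr4-1 and 1.60 in sgWdr4-2. Me1, the malic enzyme, had -0.12 in cKO, and 0.99 and 0.59 in the guide lines, and its cKO value ran to 0.18 under other scalings. Srebf2, the SREBP of sterol genes, had 0.71 in cKO, and -0.08 and -0.11 in the guide lines. Scap, the SREBP escort, had 0.49 in cKO, and -1.13 and -0.01 in the guide lines, the last of which ran to 0.08 under other scalings. Fads1, the second desaturase of polyunsaturated fatty acids, had 0.17 in cKO, and -0.40 and -0.23 in the guide lines.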

How the results depend on the processing

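The 15 counts of the 36 genes were recomputed under the alternatives, which gave 110 values, and 92 stayed within 1.5 times the count first given. Those 92 include counts of 0 that stayed 0, such as every limma count and every count of higher input. Shares in parentheses are those of all compared genes under the same setting. Exchange of the TAM footprint libraries left 2 genes with higher translation efficiency in cKO (5.53%) and 0 with lower (4.08%), and 1 with higher footprints (8.15%) and 3 with lower (2.73%). After rescaling to a common median, which brings the cKO median of all genes to 0.04, 19 genes had higher translation efficiency in cKO (8.46%) and 0 had lower (9.46%), footprints were higher for 9 (5.30%) and input lower for 3 (0.211%). Rescaled without mitochondrial, ribosomal protein and histone genes, footprints were higher in cKO for 5 (3.86%) and input lower for 3 (0.214%). With no level filter footprints were higher in cKO for 5 (2.01%). With a pseudocount of 0.1, footprints were lower for 2 (9.63%) and input lower for 2 (0.183%). A pseudocount of 5 left 0 genes with lower translation efficiency under both guides (1.14%). The cause was not tested.

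With either guide line alone, sgWdr4-1 or sgWdr4-2, translation efficiency was higher for 13 (14.8%) or 7 genes (3.53%) and lower for 3 (13.7%) or 1 (4.87%). Footprints were higher for 10 (16.1%) or 8 (3.03%) and lower for 2 (10.3%) or 0 (4.63%). Limma called 0 of the 36 genes under each alternative run. That includes the fit of the 6 iBMDM libraries with no replicate block, the paired structure left out, which called 0 of 34 and 0 of 7536 genes. Signs that turned with scaling or pseudocount were those of Ebp and Me1 in cKO, Hsd17b7 and Scap in sgWdr4-2 and Sqle in sgWdr4-1. Leaving out a WT, ff or cKO library leaves no comparison. Depth is unknown, so counting error could not be set beside any of these values.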

Other observations

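Soat1 and Soat2, the enzymes that esterify cholesterol for storage, have exchanged levels between the 2 tables. Soat1 input was 96.1, 103 and 84.9 TPM in sgWdr4-1, sgWdr4-2 and WT, and 3.52 and 0.118 TPM in cKO and ff. Soat2 input was 1.58, 0.367 and 0.306 TPM in sgWdr4-1, sgWdr4-2 and WT, and 107 and 80.1 TPM in cKO and ff. They are among 3 genes whose WT and ff inputs lay over 3 apart on the log2 scale, and the cause was not tested.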
